A study of Homo sapiens with 6 samples.

Results

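Antisense and divergent non-coding transcripts were measured in HEK293A cells, where 326 of 60676 gene IDs met 2 criteria: a symbol ending in -AS1, -AS2, -DT or -OT1 and a mean of at least 1 CPM (a gene's count as a share of its library's total, scaled to a total of 1e+06) over 6 libraries. Of the 326 transcripts, 206 carried the suffix -AS1, 109 -DT, 10 -AS2 and 1 -OT1. They came from 2387 symbols with these endings, of which 1737 had any count, and all 326 passed the filter on low counts. They were thus selected on their mean level over both treatment groups, and the levels themselves are given as a description. HHIP-AS1 (1.01 CPM), HCCS-DT (1.02 CPM) and CPB2-AS1 (1.03 CPM) lay just inside it, and MAST4-AS1 (0.979 CPM), ALOX12-AS1 (0.977 CPM) and KLRK1-AS1 (0.972 CPM) just outside.

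HEK293A is an adherent derivative of HEK293, an established human embryonic kidney line. The vehicle group was 3 libraries of cells given DMSO for 2 h, and the compound group was 3 libraries of cells given 20 nM VT01454, a compound known by its code name, for 2 h. The series concerns phosphatidylinositol transfer proteins, phosphoinositides and the Hippo pathway. Separate cultures are not named for the 3 libraries of a group, so each p-value reflects the spread among these libraries alone, and that spread may be technical.

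Many human promoters are transcribed in both directions, giving an mRNA on one strand and a non-coding transcript on the other. A divergent transcript (-DT) starts head to head with a coding gene and runs away from it, while an antisense transcript (-AS) starts near, within or beyond a gene on the opposite strand and often overlaps it. Such transcripts are usually scarce, because early termination by Integrator or at promoter-proximal polyadenylation sites and decay by the nuclear RNA exosome keep many of them short-lived, while U1 snRNP binding protects mRNAs from early cleavage.

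Total counts ran from 19126039 to 28880374 per library. Pairs of VT01454 libraries differed from each other by a chi-square per degree of freedom of 1.99 to 2.66, vehicle pairs by 7.16 to 17.9 and pairs across the groups by 6.91 to 16.3. The largest value lay between vehicle libraries 2 and 3. Of the kidney and neuronal genes known from HEK293 cells, EYA1 stood at 11.3 to 15.9 CPM and NEFL at 646 to 709 CPM, whereas PAX2, PAX8 and LHX1 did not exceed 0.707 CPM in any library. Leukocyte genes PTPRC, CD3E and CD68 had 0 counts in all 6 libraries, where a count of 0 allows up to 0.104 to 0.157 CPM (3 counts, counting error only). Among the fibroblast, endothelial and keratinocyte genes, COL1A1 reached 26.8 CPM, COL3A1 4.53 CPM and VWF 2.36 CPM, and the rest stayed at or below 0.245 CPM.

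Of the 326 transcripts, 324 had a namesake, the gene whose symbol remains once the suffix is removed, and 323 of these pairs had a protein-coding namesake. The pairs held 319 different genes, since 5 namesakes had 2 transcripts each, and HOXA-AS2 and HOXD-AS2 had none. In GENCODE release 29, 178 transcripts shared exonic bases with the namesake, 46 overlapped it with exons apart, and 97 lay divergent with no overlap. Starts lay head to head within 1000 bp in 188 pairs, 101 of them -DT and 83 -AS1, and the median distance between starts was 167 bp for -DT and 2341.5 bp for -AS1. A median of 95.4% of a transcript's exonic bases lay outside the exons of every other annotated gene, 111 transcripts lay wholly outside them, and 8 had under 50% outside. The strand setting of the counting is not given in the sources used here. Where exons overlap, reads from a transcript and from the gene on the other strand therefore cannot be told apart, and such reads may also have been left out of both counts, so levels of overlapped genes may be too low.

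Promoter windows of 300 bases, from 250 before to 50 after the RefSeq start on GRCh38.p14, were available for 259 of the 326 transcripts. They were rich in C and G, with a median of 67.0% GC and 28 CpG dinucleotides, against 58.3% and 14 over all 27305 RefSeq windows. For -DT windows the medians were 69.7% and 31.5. Windows of the namesakes stood at 67.3% and 28. Where starts lie head to head, windows of transcript and namesake can cover the same bases. The namesakes are therefore not an independent comparison, for base content or for motifs. The motifs searched on both strands were chosen after fold changes were known. The GC box GGGCGG, bound by SP-family factors, occurred in 67.2% of the transcripts' windows, 77.3% of -DT windows, 68.8% of namesake windows and 44.6% of all windows. The ETS core CCGGAAG occurred in 20.8%, 30.7%, 21.5% and 10.7% of the same 4 sets, and the YY1 core ATGGCGG in 12.4%, 15.9%, 11.8% and 5.72%. TATAAA, the core of the TATA box, was the reverse, with 4.63% of the transcripts' windows and 11.95% of all windows. The TEAD core GGAATG, the element read by the transcription factors of the Hippo pathway, occurred in 9.27% and 14.0%. Shares of the AP-1 site TGANTCA were 3.47% and 7.76%, those of the EGR core GTGGGCG 16.2% and 9.61%, those of the cAMP response element core TGACGT 13.9% and 8.32%, and those of CCAAT 33.2% and 35.7%. The EGR core and the GC box share the letters GGGCG and can overlap, and a match is a description of letters only.

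The start regions below belong to 7 of the 9 transcripts that changed and to GATD1-DT, a head-to-head transcript whose namesake fell. SLC16A1-AS1 and PDCD6IP-DT are named only. They show how closely transcript and mRNA starts are packed at the divergent loci. Each is written from 5′ to 3′ on the transcript's own strand, from RefSeq (GRCh38.p14), limited to bases outside annotated coding exons and UTRs, and capitals mark matches to the 9 motifs above on either strand. NIPBL-DT, at chr5:36876645-36876758 on the minus strand, starts 75 bases from NIPBL.
NIPBL-DT: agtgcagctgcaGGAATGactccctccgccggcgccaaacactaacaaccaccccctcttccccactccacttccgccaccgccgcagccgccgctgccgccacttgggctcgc
TFIP11-DT, at chr22:26512506-26512581 on the plus strand, starts 59 bases from TFIP11.
TFIP11-DT: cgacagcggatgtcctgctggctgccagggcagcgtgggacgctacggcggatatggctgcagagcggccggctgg
MOCS2-DT, at chr5:53109779-53109891 on the plus strand, starts 85 bases from MOCS2.
MOCS2-DT: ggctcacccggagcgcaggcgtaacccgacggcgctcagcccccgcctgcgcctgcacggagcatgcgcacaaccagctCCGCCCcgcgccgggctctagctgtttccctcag
GATD1-DT, at chr11:777489-777627 on the plus strand, starts 91 bases from GATD1.
GATD1-DT: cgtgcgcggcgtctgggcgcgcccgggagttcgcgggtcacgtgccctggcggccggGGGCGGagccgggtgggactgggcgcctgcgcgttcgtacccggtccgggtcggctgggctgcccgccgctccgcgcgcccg
TMEM147-AS1, at chr19:35545980-35546279 on the minus strand, starts 403 bases from TMEM147.
TMEM147-AS1: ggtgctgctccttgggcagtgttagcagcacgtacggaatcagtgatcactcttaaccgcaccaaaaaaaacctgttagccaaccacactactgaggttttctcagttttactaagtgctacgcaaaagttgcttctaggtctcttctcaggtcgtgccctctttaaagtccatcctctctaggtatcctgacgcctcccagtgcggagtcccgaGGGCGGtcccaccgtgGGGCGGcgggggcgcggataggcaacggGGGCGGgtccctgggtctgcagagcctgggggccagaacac
MRPL20-AS1, at chr1:1399329-1399579 on the plus strand, starts 7763 bases from MRPL20.
MRPL20-AS1: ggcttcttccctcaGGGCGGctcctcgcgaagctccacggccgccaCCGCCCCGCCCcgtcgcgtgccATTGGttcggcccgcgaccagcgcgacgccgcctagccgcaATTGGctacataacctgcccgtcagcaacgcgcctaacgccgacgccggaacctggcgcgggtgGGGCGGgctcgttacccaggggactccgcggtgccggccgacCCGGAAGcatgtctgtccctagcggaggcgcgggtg
PPP1R26-AS1, at chr9:135472200-135472499 on the minus strand, starts 7533 bases from PPP1R26.
PPP1R26-AS1: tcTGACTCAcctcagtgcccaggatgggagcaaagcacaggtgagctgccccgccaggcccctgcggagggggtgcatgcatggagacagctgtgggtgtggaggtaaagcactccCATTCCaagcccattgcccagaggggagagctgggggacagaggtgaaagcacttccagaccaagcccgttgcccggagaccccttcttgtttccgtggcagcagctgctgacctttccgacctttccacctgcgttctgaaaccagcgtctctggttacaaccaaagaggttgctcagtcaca
FAM131B-AS2 is the transcript that rose, and the stretch at chr7:143380976-143381079 lies on the minus strand.
FAM131B-AS2: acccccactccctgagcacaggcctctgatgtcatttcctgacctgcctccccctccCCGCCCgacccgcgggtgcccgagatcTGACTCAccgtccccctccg
GC content ran from 57.7% in TMEM147-AS1 to 82.7% in GATD1-DT, with TMEM147-AS1 and PPP1R26-AS1 (59.7%) near the median of all windows, and MRPL20-AS1 held 7 matches while TFIP11-DT held 0. A TEAD core stood in NIPBL-DT and in PPP1R26-AS1, and the AP-1 letters TGACTCA stood both in PPP1R26-AS1, which fell, and in FAM131B-AS2, which rose.

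The transcripts as a group stood slightly lower after 2 h of VT01454. Their median log2 fold change was −0.14 (quartiles −0.31 and 0.02), and 236 of 326 (72.4%) lay below 0. Over all 15577 tested genes the median was −0.0073 and 51.6% lay below 0. Together the 326 transcripts took 0.201%, 0.202% and 0.199% of the counts of vehicle libraries 1, 2 and 3, and 0.181%, 0.183% and 0.182% of those of VT01454 libraries 1, 2 and 3. All 3 compound libraries were below all 3 vehicle libraries. In bulk RNA, fewer cells of a type and less RNA per cell cannot be told apart.

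**Figure D1:**
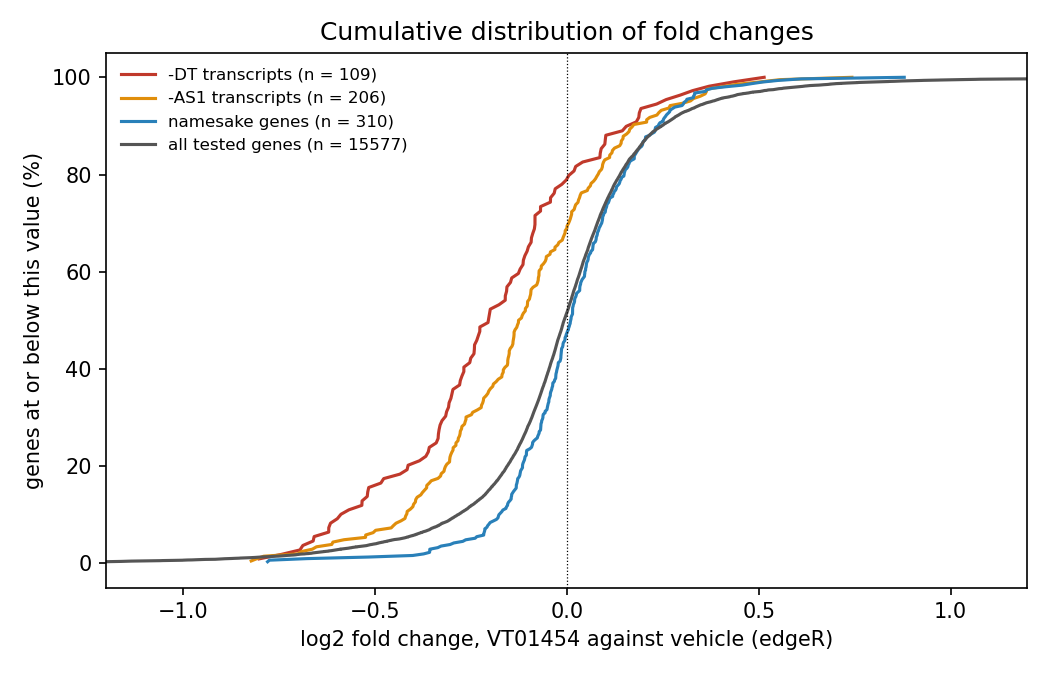
Cumulative share of genes (%, vertical axis) at or below each log2 fold change, VT01454 against vehicle (horizontal axis), for -DT transcripts, -AS1 transcripts, namesakes taken once per pair, and all tested genes. The -DT line (median −0.20) and the -AS1 line (median −0.12) lie to the left of all tested genes (median −0.0073) through the middle of the distribution, and the namesake line (median 0.010) lies close to it.

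By edgeR's quasi-likelihood test with Benjamini-Hochberg adjustment over all tested genes, 8 transcripts fell and 1 rose at an adjusted p below 0.05, against 0.616% of all tested genes called lower and 1.27% called higher. In percent, 2.45% of the transcripts were lower and 0.307% higher. At an unadjusted p below 0.05, 52 were lower and 5 higher, where 6.55% and 7.82% of all tested genes were. Groups that did not overlap, with every compound library below every vehicle library, were found for 68 transcripts (20.9%), against 9.84% of all tested genes. The opposite separation was found for 17 (5.21%), against 11.3%. Among 445 other lincRNA and antisense genes of at least 1 CPM the shares were close to those of the transcripts, at 18.7% and 4.72%. The number of calls rested on single libraries: 19 transcripts were lower and 3 higher without vehicle library 3, 7 and 2 without vehicle library 2, 2 and 0 without VT01454 library 1, and 1 and 0 without vehicle library 1, VT01454 library 2 or VT01454 library 3. The shares of all tested genes called in these 6 fits are not given here. The swing in calls is therefore not read as particular to the transcripts. The median log2 fold change of the transcripts stayed between −0.15 and −0.12 in these 6 fits, and the number below 0 between 226 and 237.

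Each library taken alone lay on its group's side. The median deviation from a gene's own mean over the 6 libraries was 0.062, 0.069 and 0.059 in vehicle libraries 1, 2 and 3 and −0.057, −0.057 and −0.069 in VT01454 libraries 1, 2 and 3. For -DT transcripts it was 0.085, 0.099 and 0.068 in vehicle and −0.080, −0.077 and −0.074 after VT01454. Namesakes deviated by −0.0051, −0.035 and 0.020 in vehicle and by 0.020, 0.018 and 0.012 after VT01454, so that vehicle library 3 lay among the compound libraries.

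**Figure D2:**
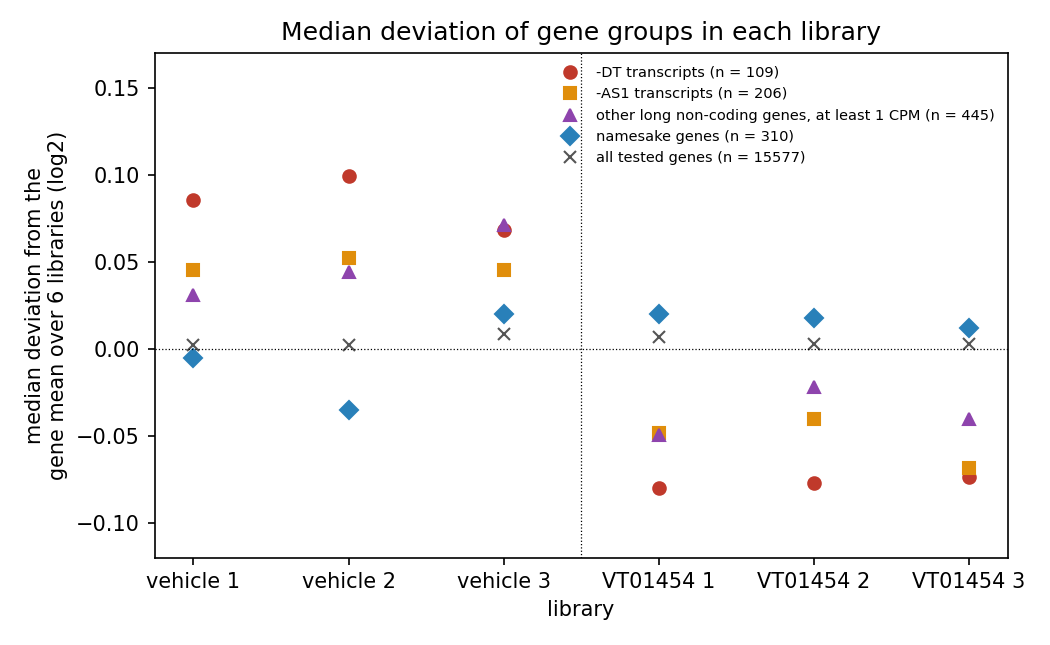
Median deviation (log2, vertical axis) from each gene's mean over the 6 libraries, by library, for -DT transcripts, -AS1 transcripts, other long non-coding genes of at least 1 CPM, namesakes and all tested genes. Points of the -DT and -AS1 transcripts are above 0 in the 3 vehicle libraries and below 0 in the 3 VT01454 libraries.

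Divergent transcripts had the lower median of the 2 large classes. The -DT median was −0.20, with 86 of 109 below 0, 4 called lower and 0 higher (24 lower and 1 higher at an unadjusted p below 0.05). The -AS1 median was −0.12, with 142 of 206 below 0, 4 called lower and 0 higher (26 lower and 3 higher unadjusted). Calls of all tested genes were 0.616% lower and 1.27% higher, against 3.67% and 0% of -DT and 1.94% and 0% of -AS1 transcripts. Groups did not overlap for 28 -DT transcripts that were lower (25.7%) and 4 that were higher (3.67%), and for 39 (18.9%) and 12 (5.83%) -AS1 transcripts, against 9.84% and 11.3% of all tested genes. The 10 -AS2 transcripts had a median of −0.14 and held the single riser. The difference between the classes was not tested.

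Medians were similar whatever the distance to the namesake's start or the sharing of exonic bases, although these differences were not tested. Head-to-head transcripts stood at −0.15 and transcripts on the opposite strand with starts farther apart at −0.13. Transcripts with no exonic base in the exons of another annotated gene stood at −0.16 with 81 of 111 below 0. Those with some shared bases stood at −0.14 with 155 of 215 below 0.

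Set beside mRNAs in the same range of mean level, the transcripts had the lower median in each range. Between 1 and 2 CPM the median was −0.16 for 117 of the transcripts and −0.040 for 690 protein-coding genes. From 2 to 5 CPM it was −0.14 and −0.035, from 5 to 10 CPM −0.15 and −0.033, and from 10 CPM upwards −0.12 for 42 transcripts and 0.0092 for 9143 protein-coding genes. The last range has no upper limit, so levels are not matched within it. In vehicle library 1 the 42 transcripts took 0.105% of the counts and the 9143 genes 97.1%. The 445 other lincRNA and antisense genes of at least 1 CPM had a median of −0.098, with 288 below 0, 9 called lower and 0 higher (64 and 14 at an unadjusted p below 0.05). Of the 445 genes 2.02% were called lower, against 2.45% of the transcripts and 0.616% of all tested genes. Groups did not overlap for 83 that were lower (18.7%) and 21 higher (4.72%), against 9.84% and 11.3% of all tested genes. These shares were close to those of the transcripts (20.9% and 5.21%). The 246 tested transcripts with these suffixes under 1 CPM had a median of −0.13, with 147 below 0 (59.8%) and 0 called by edgeR. At an unadjusted p below 0.05, 12 were lower and 4 higher, where 6.55% and 7.82% of all tested genes were. Their groups were separate and lower for 23 (9.35%), near the 9.84% of all tested genes, and separate and higher for 7 (2.85%), against 11.3%.

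**Figure D3:**
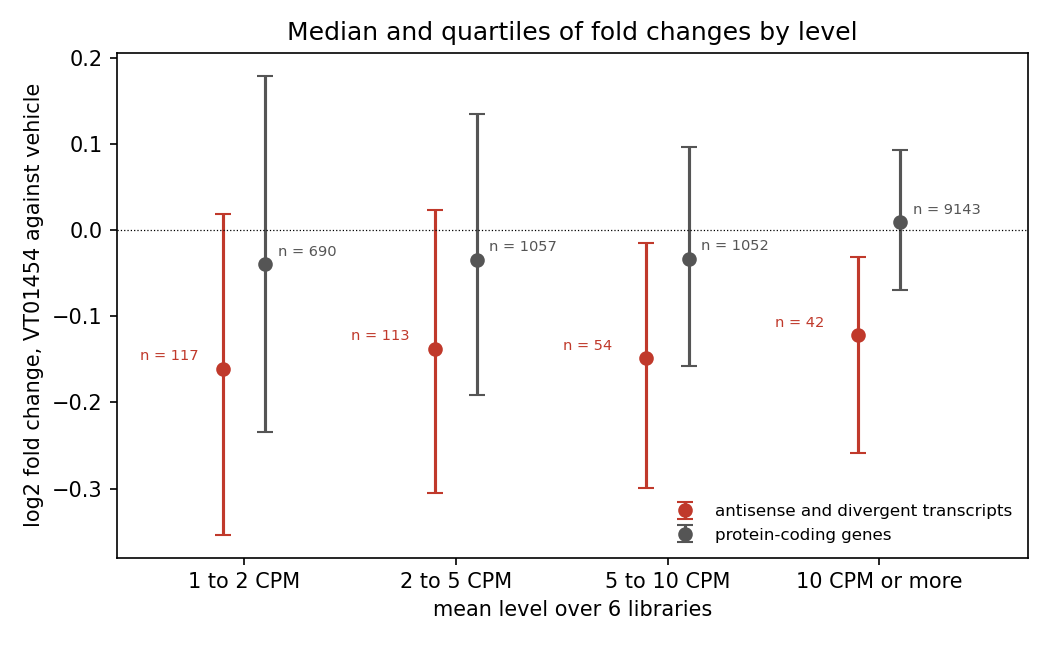
Median and quartiles of the log2 fold change (vertical axis) in 4 ranges of mean level (horizontal axis) for the antisense and divergent transcripts and for protein-coding genes. The transcripts' medians run from −0.16 to −0.12 and those of protein-coding genes from −0.040 to 0.0092. The range from 10 CPM upwards has no upper limit.

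Divergent transcripts of 4 genes fell. The changed transcripts were picked by their adjusted p, which favours separate groups, so separations given for them are a description only. MOCS2-DT, which lies head to head with the gene for the subunits of molybdopterin synthase, stood at 8.81, 7.98 and 9.29 CPM in vehicle libraries 1, 2 and 3 and at 5.26, 4.94 and 4.78 CPM in VT01454 libraries 1, 2 and 3. Its groups were far apart, with the highest compound library below the lowest vehicle library. It fell 1.74-fold (−0.80 ± 0.12 SE, adjusted p = 0.00336), and it alone of the 9 changed transcripts passed without any single library (adjusted p at most 0.0440). MOCS2 itself did not pass, at 59.1, 69.6 and 65.5 CPM in vehicle and 58.6, 55.4 and 59.0 CPM after VT01454 (−0.17 ± 0.07, adjusted p = 0.312).

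NIPBL-DT lies next to the gene for the cohesin loader. In vehicle libraries 1, 2 and 3 it stood at 27.5, 29.6 and 31.2 CPM, and after VT01454 at 22.9, 24.03 and 23.1 CPM, with no overlap of the groups. It fell 1.26-fold (−0.33 ± 0.08, adjusted p = 0.0466). NIPBL stood at 242, 194 and 283 CPM in vehicle, with library 2 low, and at 273, 292 and 283 CPM after VT01454 (0.24 ± 0.12, adjusted p = 0.394).

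TFIP11-DT shares its start region with the gene for a factor of spliceosome disassembly. Levels were 10.1, 11.2 and 10.5 CPM in vehicle and 7.40, 8.39 and 6.45 CPM after VT01454, again without overlap. The fall was 1.43-fold (−0.52 ± 0.12, adjusted p = 0.0468). PDCD6IP-DT, at the gene for the ESCRT-associated protein ALIX, went from 4.81, 4.59 and 4.39 CPM to 2.91, 2.69 and 3.10 CPM. Its groups did not overlap and it fell 1.58-fold (−0.66 ± 0.15, adjusted p = 0.0489). Neither TFIP11 (0.01 ± 0.06) nor PDCD6IP (0.09 ± 0.06) passed.

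Antisense transcripts of 4 further genes fell. MRPL20-AS1, opposite a gene of the large mitochondrial ribosomal subunit, stood at 32.1, 30.02 and 29.2 CPM in vehicle and at 23.8, 20.8 and 22.5 CPM after VT01454. The groups did not overlap, and the fall was 1.36-fold (−0.45 ± 0.08, adjusted p = 0.0114). A second transcript of the locus, MRPL20-DT, had a log2 fold change of −0.62 ± 0.20 and did not pass (adjusted p = 0.165).

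PPP1R26-AS1, opposite a gene for a regulatory subunit of protein phosphatase 1, stood at 4.95, 4.80 and 5.42 CPM in vehicle and at 3.08, 3.21 and 2.37 CPM after VT01454. It fell 1.75-fold (−0.81 ± 0.16, adjusted p = 0.0254), the steepest of the 8 falls. PPP1R26 was nearly level, between 71.2 and 74.1 CPM in all 6 libraries. None of the exonic bases of PPP1R26-AS1 is shared with an exon of another annotated gene.

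SLC16A1-AS1, opposite the gene for the lactate transporter MCT1, was tight within groups, at 20.6, 20.6 and 21.3 CPM in vehicle and 16.4, 16.5 and 15.7 CPM after VT01454. It fell 1.29-fold (−0.37 ± 0.08, adjusted p = 0.0327). TMEM147-AS1, opposite a gene for a membrane protein of the endoplasmic reticulum, went from 18.3, 17.5 and 16.997 CPM to 14.0, 13.9 and 12.9 CPM and fell by 0.37 ± 0.09 on the log2 scale (adjusted p = 0.0469). In both, every compound library lay below every vehicle library. TMEM147-AS1 had 79.1% of its exonic bases outside the exons of other genes, the lowest share among the 9 changed transcripts.

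The transcript that rose was FAM131B-AS2. It stood at 1.46, 1.67 and 1.81 CPM in vehicle and at 3.37, 3.49 and 3.02 CPM after VT01454, so the lowest compound library was well above the highest vehicle library. It rose 1.99-fold (0.99 ± 0.19, adjusted p = 0.0164). Although named antisense, it lies on the minus strand with FAM131B in GENCODE release 29, with the starts 17725 bp apart. FAM131B was low, at 0.365 to 0.806 CPM (0.51 ± 0.35, adjusted p = 0.534).

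Except for MOCS2-DT, these calls depended on single libraries, while the fold changes moved little. Without vehicle library 1, or without VT01454 library 2 or 3, the other 8 lost the call, and 7 of them (all but MRPL20-AS1) lost it without VT01454 library 1 too. TFIP11-DT and PDCD6IP-DT also lost it without vehicle library 2. The adjusted p reached at most 0.123 for MRPL20-AS1, 0.110 for FAM131B-AS2, 0.154 for PPP1R26-AS1, 0.238 for SLC16A1-AS1, 0.254 for NIPBL-DT, 0.265 for TFIP11-DT, 0.286 for TMEM147-AS1 and 0.257 for PDCD6IP-DT. Over the same 6 fits the log2 fold change stayed between −0.37 and −0.34 for SLC16A1-AS1, −0.38 and −0.29 for NIPBL-DT, −0.40 and −0.33 for TMEM147-AS1, and −0.49 and −0.39 for MRPL20-AS1. It stayed between −0.61 and −0.42 for TFIP11-DT, −0.71 and −0.61 for PDCD6IP-DT, −0.88 and −0.68 for PPP1R26-AS1, and 0.92 and 1.07 for FAM131B-AS2.

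**Figure D4:**
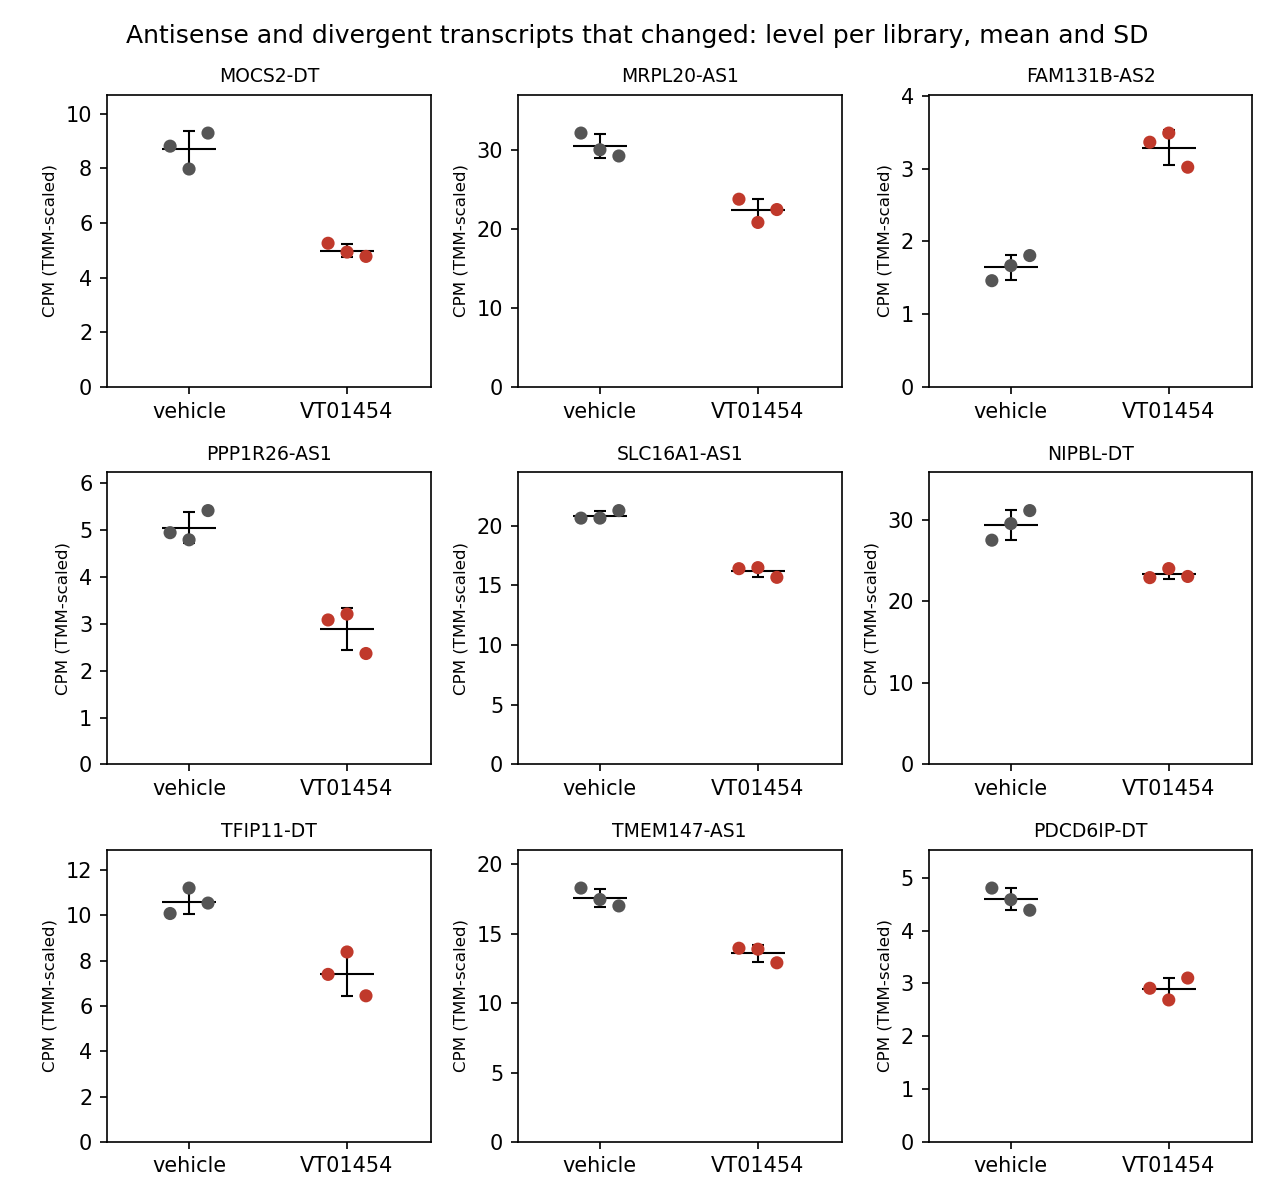
Level (TMM-scaled CPM, vertical axis from 0) of the 9 changed transcripts in each vehicle and VT01454 library, with the mean and SD over 3 libraries. In 8 panels the 3 compound points lie below the 3 vehicle points, and for FAM131B-AS2 they lie above them.

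The 10 transcripts next in order of unadjusted p did not pass in edgeR (adjusted p = 0.0822 to 0.138), and in all 10 the groups did not overlap. They were picked by their small p, which favours separate groups, so the separation is a description only. Of all tested genes 9.84% were separate and lower and 11.3% separate and higher. Lower values were seen for PRKCQ-AS1 (protein kinase C theta, −0.50 ± 0.13), PCCA-DT (propionyl-CoA carboxylase, −0.44 ± 0.12), SLC16A4-AS1 (−0.79 ± 0.21), ECI1-AS1 (a mitochondrial enoyl-CoA isomerase, −0.69 ± 0.19), ZMPSTE24-DT (the prelamin A protease, −0.53 ± 0.15), PXN-AS1 (paxillin, −0.82 ± 0.24), C2orf74-DT (−0.36 ± 0.11) and ZNF584-DT (−0.30 ± 0.09). RBM26-AS1 (0.50 ± 0.14) and MZF1-AS1 (0.74 ± 0.22) had higher values. PRKCQ-AS1 stood at 11.6, 13.2 and 9.81 CPM in vehicle and at 7.99, 9.07 and 7.35 CPM after VT01454. MZF1-AS1 went the other way, from 1.41, 1.56 and 2.03 CPM to 2.59, 2.57 and 3.31 CPM, but only 57.0% of its exonic bases lie outside the exons of other genes.

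None of the 6 most abundant transcripts passed. FGD5-AS1 stood at 118, 112 and 122 CPM in vehicle and 119, 125 and 123 CPM after VT01454, with overlapping groups (0.06 ± 0.06, adjusted p = 0.665). OIP5-AS1, a cytoplasmic lncRNA also called Cyrano, stood at 0.12 ± 0.07, ARRDC1-AS1 at −0.14 ± 0.08, TP73-AS1 at −0.13 ± 0.07, NUTM2A-AS1 at −0.09 ± 0.07 and OTUD6B-AS1 at −0.12 ± 0.08, with adjusted p = 0.424 to 0.557. Per kilobase of exon, FGD5-AS1 (23.3 CPM per kb) and ARRDC1-AS1 (21.6 CPM per kb) were the highest of the 6, and OIP5-AS1 (7.08), OTUD6B-AS1 (5.22), TP73-AS1 (5.10) and NUTM2A-AS1 (5.01) followed. FGD5 had at most 0.0701 CPM, under the floor of 3 counts, whereas its antisense transcript was the most abundant of all 326.

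The namesakes as a group lay close to 0. Both partners were tested in 310 pairs with 305 different namesakes. Taken once per pair, the namesakes had a median log2 fold change of 0.010, with 146 below 0. Of them 5 rose and 1 fell, against 1.27% and 0.616% of all tested genes, and the groups did not overlap for 27 that were lower (8.71%) and 44 that were higher (14.2%), against 9.84% and 11.3% of all tested genes. Namesakes of -DT transcripts had a median of 0.0084, and those of -AS1 transcripts 0.015. These calls also moved with single libraries: 42 namesakes were higher and 12 lower without vehicle library 3, 8 and 3 without vehicle library 2, 2 and 0 without VT01454 library 1, and 0 and 0 without vehicle library 1, VT01454 library 2 or VT01454 library 3. Shares of all tested genes in the same fits are not given here, so this swing is not read as particular to the namesakes.

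To compare each transcript with its namesake, the log2 ratio of their levels (each with 0.5 CPM added) was taken in each library. Its median difference, VT01454 minus vehicle, was −0.15 over the 310 pairs, and it was below 0 in 223 (71.9%). In 59 pairs (19.03%) all 3 compound ratios lay below all 3 vehicle ratios, and in 13 (4.19%) above. Over all 531 tested pairs of these suffixes, including those under 1 CPM, the shares were 15.3% and 4.14%. The 310 pairs are among these 531, so the 2 sets of shares are not independent. Shares for pairs of other kinds of genes are not given here. With the 139 pairs whose exons do not overlap the median difference was −0.17, and with the 171 whose exons do it was −0.13. An exact permutation test of 3 against 3 cannot give a p below 0.1, so no pair can pass 0.05 and single pairs are described without a p.

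The fold changes of transcript and namesake were hardly correlated across the 310 pairs (Pearson r = 0.070, Spearman rho = 0.053, a description across genes measured in the same libraries). In 112 pairs the transcript was below 0 and the namesake above, in 110 both were below, in 52 both were above and in 36 the transcript was above and the namesake below. Per kilobase the namesake's level was a median of 4.84 times that of the transcript, 7.18 times for -DT and 4.04 times for -AS1. In 55 pairs the transcript was the more abundant per kilobase.

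**Figure D5:**
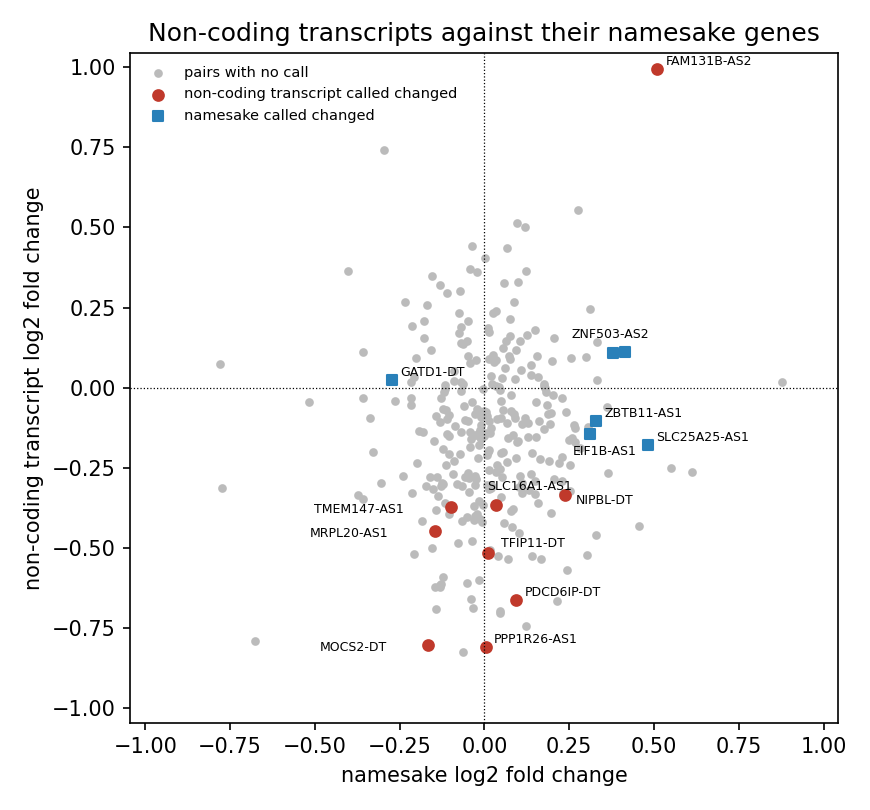
Log2 fold change of each transcript (vertical axis) against that of its namesake (horizontal axis) for 310 pairs. Red circles are pairs whose transcript changed and blue squares pairs whose namesake changed. No pair has both colours, and the red circles other than FAM131B-AS2 lie between −0.81 and −0.33 on the vertical axis.

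The ratios of the 8 transcripts that fell are given as a description, since these transcripts were picked out by their own fall in the same libraries. Groups of ratios did not overlap in 6 of the 8, where 19.03% of the 310 pairs had separate, lower ratios. The log2 ratio of MOCS2-DT to MOCS2 was −2.68, −3.05 and −2.75 in vehicle and −3.36, −3.36 and −3.50 after VT01454, a difference of −0.58. That of NIPBL-DT was −3.11, −2.69 and −3.16 in vehicle and −3.55, −3.58 and −3.59 after VT01454, also a difference of −0.58. Neither set of ratios overlapped. The differences were −0.68 for PDCD6IP-DT, −0.73 for PPP1R26-AS1, −0.39 for SLC16A1-AS1 and −0.51 for TFIP11-DT, likewise with no overlap. For MRPL20-AS1 (−0.31) and TMEM147-AS1 (−0.27) the groups of ratios overlapped, and in both the ratio in vehicle library 2 was as low as in the compound libraries.

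None of the 6 namesakes that changed had a transcript that passed, and 5 of these pairs are described here. SLC25A25, a mitochondrial ATP-Mg/phosphate carrier gene, rose from 22.6, 24.4 and 20.5 CPM to 30.4, 30.7 and 33.0 CPM (0.48 ± 0.08, adjusted p = 0.00881). Its groups did not overlap. The zinc finger genes ZBTB11 (0.33 ± 0.06, adjusted p = 0.0211) and ZNF503 (0.38 ± 0.08, adjusted p = 0.0223) and the initiation factor gene EIF1B (0.31 ± 0.07, adjusted p = 0.0295) rose as well, and GATD1 fell by 0.27 ± 0.06 on the log2 scale (adjusted p = 0.0304). Each of the 5 lost the call without vehicle library 1 and without VT01454 library 2 or 3, and the 4 other than SLC25A25 without VT01454 library 1 too (adjusted p up to 0.227).

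Their transcripts had overlapping groups. GATD1-DT stood at 2.31, 2.40 and 1.73 CPM in vehicle and at 1.89, 2.29 and 2.33 CPM after VT01454 (0.02 ± 0.21). Log2 fold changes were −0.10 ± 0.12 for ZBTB11-AS1, −0.14 ± 0.29 for EIF1B-AS1, −0.18 ± 0.20 for SLC25A25-AS1 and 0.11 ± 0.20 for ZNF503-AS2. The ratio to the namesake did not overlap between groups for ZBTB11-AS1 (−0.43) and GATD1-DT (0.29), and it overlapped for the other 3. The sign was opposite for GATD1-DT, whose namesake fell.

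Transcripts of the factors that terminate or degrade such RNAs were read from the same fit. No gene of the nuclear exosome and its adaptors passed among 20 tested (median −0.094, with 2 lower and 1 higher at an unadjusted p below 0.05). The same held for 23 tested genes of Integrator, NELF, DSIF, Restrictor and the cap-binding complex (median 0.032, 1 lower and 2 higher unadjusted), for 3 U1 snRNP proteins (median −0.11, 0 and 0) and for 7 genes of pause release (median 0.068, 0 and 0). Over all tested genes only 1.89% were called, so the absence of calls in lists this short is not read as no change. Separate groups were found for 6 exosome genes that were lower (30%) and 3 higher (15%). In the Integrator list these were 2 (8.70%) and 5 (21.7%), in the U1 list 0 and 0, and in the pause-release list 0 and 1. The shares over all tested genes were 9.84% and 11.3%. Of the 25 genes listed in the second group, NELFE had 4 to 12 counts per library and SUPT4H1 0 counts in all 6, so neither was tested. Both encode elongation factors of general use, and SUPT4H1 overlaps a longer annotated gene on its own strand in GENCODE release 29, so these counts are not read as levels. INTS3, among the 23 tested genes, was low and uneven at 1.32 to 6.60 CPM (−0.49 ± 0.80), so its lack of a call is not read as no change.

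Of 16 genes of cleavage, polyadenylation and torpedo termination (median 0.060), 2 rose and 0 fell, against 1.27% and 0.616% of all tested genes. At an unadjusted p below 0.05, 3 were higher and 1 lower, against 7.82% and 6.55%. PCF11, which drives termination after cleavage and at promoter-proximal sites, stood at 78.4, 65.7 and 83.6 CPM in vehicle and at 108, 110.5 and 109 CPM after VT01454. Every compound library was above every vehicle library, and PCF11 rose by a log2 fold change of 0.52 ± 0.08 (adjusted p = 0.00368). When vehicle library 1 was left out the log2 fold change was 0.55 and the adjusted p 0.0610. CSTF3, a subunit of the cleavage stimulation factor, went from 83.2, 88.9 and 88.4 CPM to 105, 101 and 105 CPM (0.25 ± 0.06, adjusted p = 0.0490). Its call was lost without vehicle library 1 or any VT01454 library (adjusted p up to 0.270), with limma-voom (0.0501), with library totals alone (0.0745) and with the replicate number as a block (0.0722), with a log2 fold change of 0.22 to 0.28 when 1 library was left out. Whether these 2 transcripts bear on the levels of the antisense and divergent transcripts was not tested.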

How the data were processed

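RNA sequencing of 3 vehicle and 3 VT01454 samples was used. Raw read counts per Ensembl gene were deposited by the authors, 1 table per sample; the tools in the submitters' processing notes are HTSeq 0.9.1 and HISAT2 2.2.1, with build hg38, and the labels' protocols name the NEBNext Ultra II RNA kit. Neither the annotation release nor the strand setting is given in the sources used here, nor how reads mapping to many places were handled.

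Symbols were matched to 60357 of 60676 IDs, and GENCODE release 29 (same build, 58503 IDs) gave coordinates and exonic length. edgeR 4.0.16 in R 4.3.3 was run on all genes kept by filterByExpr (15577) with TMM factors and a robust quasi-likelihood test, two-sided, with Benjamini-Hochberg adjustment over all of them. Each SE was obtained from the fold change (log2) and its F statistic. Printed CPM values are TMM-scaled, and the criterion of 1 CPM used library totals. Total counts of 19126039 to 28880374 make 1 count worth 0.0346 to 0.0523 CPM. The pipeline was tested on simulated data with 50 changed genes at each fold. It recovered 36% of 1.3-fold, 56% of 1.5-fold, 86% of 2-fold and 92% of 3-fold changes, with 10 false calls. The changed genes were drawn from all tested genes, with the same spread in both groups, whereas the antisense and divergent transcripts had a median level of 2.71 CPM. Recovery among these transcripts alone was not measured and may be lower. A gene that did not pass may therefore still have changed.

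Alternatives were DESeq2 1.42.0, limma-voom 3.58.1, other scalings, filters and thresholds, the replicate number as a block, each library left out, and other level and overlap criteria. The transcripts, factor lists and motifs were chosen with earlier results of these data known. Named are transcripts that changed, the next 10 by p, the 6 most abundant, those whose namesake changed, and their namesakes; 1 pair whose namesake changed is not reported here, and MRPL20-DT was added after its values were seen.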

Additional observations from a re-analysis of the deposited data

How the results depend on the processing

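The number of calls moved most with single libraries, and the median fold change and the median pair difference stayed below 0 in the alternatives run. Of the 117 transcripts of 1 to 2 CPM, 0 passed in edgeR (12 lower and 0 higher at an unadjusted p below 0.05). Leaving out 1 library gave 1 to 19 transcripts lower and 0 to 3 higher, a median of −0.1497 to −0.1235, 0 to 42 namesakes higher and 0 to 12 lower, 79 to 93 pairs with separate ratios that were lower and 18 to 29 higher, and a median pair difference of −0.1544 to −0.1351. Groups separate more easily when 1 library is left out. The counts of separate pairs in those fits are therefore not comparable with the 59 lower and 13 higher found with all 6 libraries. Without a count filter 3 transcripts and 21 namesakes were higher and the median was −0.128. With library totals alone it was −0.1651. At an adjusted p below 0.01, 1 transcript was lower and 0 higher, and 1 namesake was higher and 0 lower. DESeq2 called 10 namesakes higher and 10 transcripts lower, adding PRKCQ-AS1 (adjusted p = 0.0380) and ECI1-AS1 (0.0490). With only pairs whose exons do not overlap, 3 transcripts were lower, 0 namesakes higher, the median was −0.1568, the pair difference −0.1727, and 26 pairs were lower and 7 higher. A pseudocount of 2 CPM gave a pair difference of −0.1132, and a criterion of 0.5 CPM gave 20 pairs higher. Shares of all tested genes called in these alternatives are not given here.

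The replicate number as a block gave 6 transcripts lower and 1 higher; NIPBL-DT (adjusted p = 0.0538), PDCD6IP-DT (0.0594), SLC16A1-AS1 (0.0517) and TMEM147-AS1 (0.0574) lost the call, as did CSTF3 (0.0722), and PRKCQ-AS1 (0.0259) and ECI1-AS1 (0.0436) gained it. Under the block the median was −0.1426, with 6 namesakes higher and 1 lower. Same-numbered samples shared only a number, with correlations of deviations of −0.0949, −0.0236 and 0.00234. With limma-voom TMEM147-AS1 lost the call (0.0520).

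Among 60 named genes, 17 values of genes that did not pass changed sign. With library totals alone these were PPP1R26 at −0.0192, TFIP11 at −0.0127, GATD1-DT at −0.000404 and TP73 at −0.00379. When 1 library was left out, log2 fold changes ran from −0.00563 to 0.0215 for PPP1R26, from −0.0161 to 0.0489 for TFIP11, from −0.179 to 0.0306 for TMEM147, from −0.397 to 0.0351 for EIF1B-AS1, from −0.122 to 0.116 for GATD1-DT, from −0.142 to 0.259 for ZNF503-AS2, from −0.131 to 0.0263 for ARRDC1 and from −0.0285 to 0.116 for TP73. The cause was not tested.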
